A study of Homo sapiens with 4 samples.

Results

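Transcripts of the ubiquitin conjugating and activating enzymes were examined in MV4-11 cells after knockdown of the transcription factor IRF1. The set was picked by gene name, with earlier results of these libraries known, and holds 35 genes: 4 E1 activating enzymes and 31 E2 conjugating enzymes or E2-like cofactors. All 35 were found among the 23622 genes of the deposited table, and all 35 passed the filter on low values. MV4-11 is an established human cell line of acute myeloid leukemia. The 4 libraries are 2 from cells with a control hairpin (sh-NC), whose sample labels give a wild-type genotype and no treatment, and 2 from cells with a hairpin against IRF1 (sh-IRF1). Both groups are the same cell line. The study's methods describe lentiviral delivery of the hairpins followed by puromycin selection, and state the days of selection before knockdown cells were collected. The labels give no time of harvest for these libraries. A short hairpin lowers the transcript it matches and does not delete the gene. The study lists a pair of hairpins against IRF1, shown here because they are the agents behind the comparison, and the labels do not say which of them was used in which library.
sh-IRF1#1: gcaccagtgatctgtacaact
sh-IRF1#2: ggaaattacctgaggacatca

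Ubiquitin is a small protein that is attached to other proteins in a relay. An E1 enzyme activates it with ATP, an E2 enzyme receives it as a thioester, and an E3 ligase brings the loaded E2 to the substrate. The E2 often decides which kind of ubiquitin chain is built, and the kind of chain decides whether the substrate is degraded by the proteasome or used in signalling, trafficking or DNA repair. The related modifiers NEDD8 and SUMO have E1 and E2 enzymes of their own. In leukemia cells the system is known for its part in the turnover of cell cycle regulators and transcription factors.

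The libraries held between 17635908 and 18695337 recovered reads, and mitochondrial genes took 3.92% to 4.51% of them. Nothing in the labels says that the libraries of a group came from separate cultures, so the p-values measure the spread between these libraries, which may be technical. IRF1 itself, the targeted gene, stood at 785 and 738 normalized counts in sh-NC and at 430 and 432 in sh-IRF1. Normalized counts are reads divided by 1 size factor per library, as the authors deposited them. On the log2(normalized count + 1) scale, which all fold changes below use, IRF1 was lower by -0.82 (SE 0.0904, 95% interval -1.0 to -0.64, limma adjusted p = 1.69e-10). Other genes, IRF1-AS1 among them, overlap 22.9% of the exonic bases of IRF1. All 9 leukemia and myeloid markers looked at were in the table, and their summed level ran from 27460 to 27640 normalized counts in sh-NC and from 24650 to 24690 in sh-IRF1. Most of that sum is FLT3, at 72.9% of sh-NC, and single markers moved both ways, with 4 of the 9 lower and 3 higher. MPO stood at 477 and 443 against 185 and 158 normalized counts (37.3%), CD14 at 38.0 and 42.1 against 10.9 and 1.87, and LYZ at 1824 and 1785 against 3276 and 3218 (180%). Of 8 markers of other cell types 4 were in the table, with sums of 1196 and 1472 in sh-NC and 3228 and 3159 in sh-IRF1, nearly all of it PECAM1, which myeloid cells also express. Without PECAM1 the sums were 37.0 and 72.9 against 49.8 and 39.3, and ALB and COL1A1, which mark liver and stromal cells, stayed between 0 and 4.97. The part of these marker changes in the results below was not tested, and in bulk RNA fewer cells of a kind and less RNA per cell cannot be told apart.

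Transcripts of this enzyme set fell more often than they rose. Of the 35 genes, 17 (48.6%) were lower in sh-IRF1 at an adjusted p under 0.05 and 2 (5.71%) were higher, while 16 did not pass the test. Over all 14120 genes tested, 21.9% were lower and 20.3% higher. The counts by role below, each over 2 to 9 genes, are to be read beside these shares. Over the 35, the median log2 fold change came to -0.14, against -0.002 over all genes tested, and single genes ran from -1.22 for UBE2E2 to 0.35 for UBE2D4. Few of the changes were large. A log2 fold change beyond 0.5 was reached downward by 3 genes (8.57%), UBE2E1, UBE2E2 and UBE2B, against 7.56% of all genes, and upward by 0 genes, against 8.27%. Both sh-IRF1 libraries lay below both sh-NC libraries for 21 of the 35 genes (60.0%, against 35.0% of all genes tested), and above them for 6 (17.1%, against 34.2%). Beside the 2 higher genes with adjusted p under 0.05, UBA3, UBE2D4, UBE2W and UBE2V1 make up these 6. Of the 17 lower calls, 14 were made under all 15 alternative analyses, the exceptions being UBE2A, UBE2E2 and UBE2Q1. With 2 libraries against 2, an exact permutation test cannot give a two-sided p below 0.33, so each call depends on a spread that limma estimates over many genes.

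**Figure D1:**
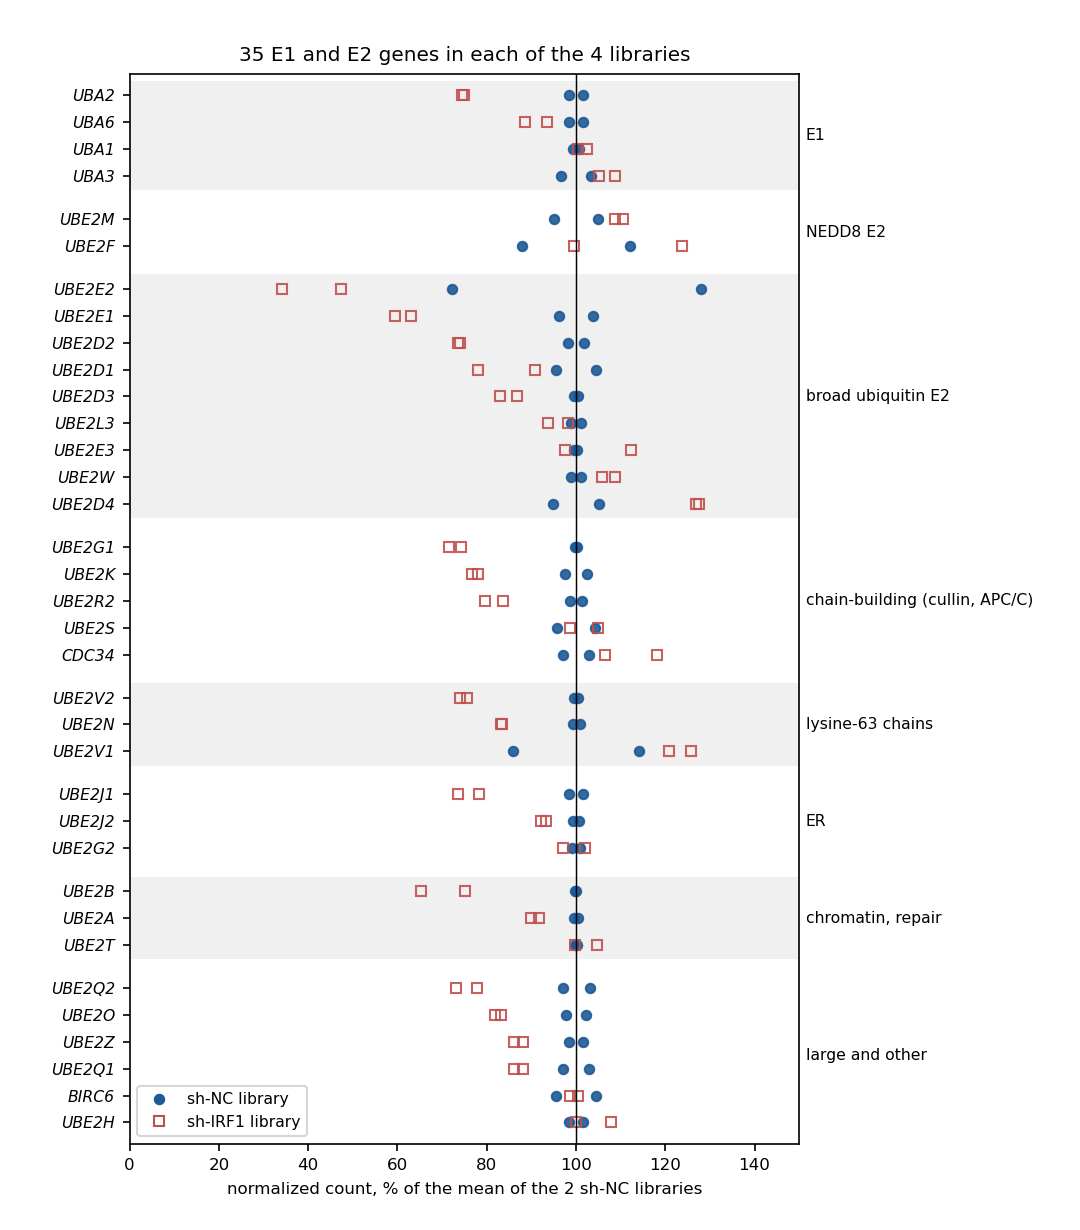
Normalized count of each of the 35 genes in each library, as a percentage of the mean of the 2 sh-NC libraries, with genes grouped by role and ordered by fold change. Both sh-IRF1 squares lie left of both sh-NC circles for 21 genes, and the sh-NC libraries lie farthest apart for UBE2E2, UBE2F and UBE2V1, which have few reads.

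**Figure D2:**
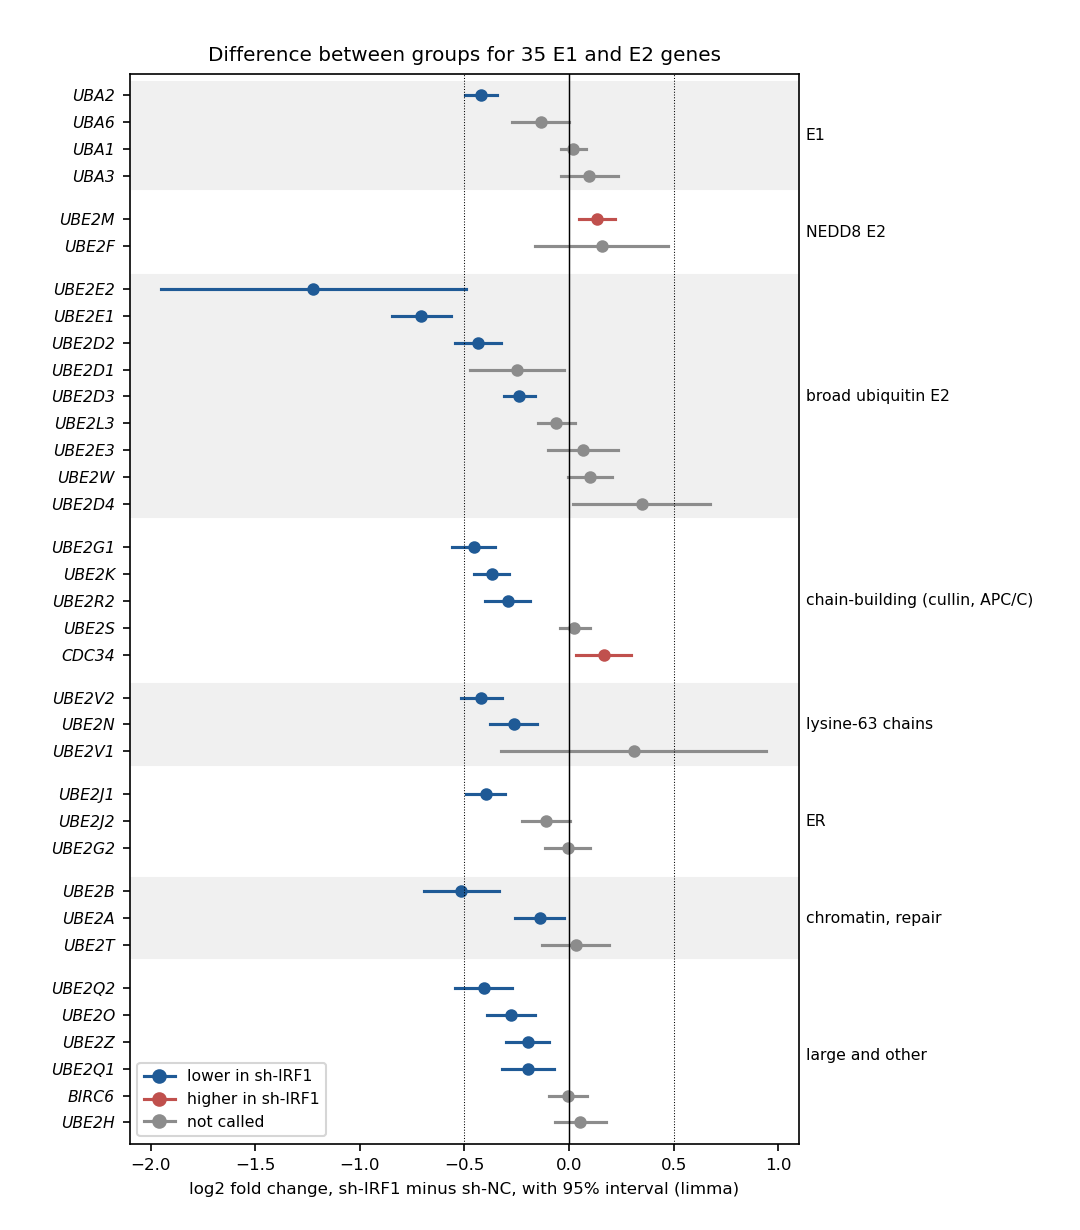
Log2 fold change between the groups (sh-IRF1 minus sh-NC) with its 95% interval from limma for the 35 genes, by role, with dotted lines at 0.5 in each direction. The 17 genes called lower are blue, the 2 called higher red, and the 16 that did not pass the test grey.

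The 4 E1 enzymes differed among themselves, and the one that fell belongs to the SUMO pathway. UBA2 (ENSG00000126261, chr19:34428352-34471251 on GRCh38, plus strand) is the catalytic subunit of the SUMO E1. It stood at 5546 and 5714 normalized counts in sh-NC and at 4197 and 4214 in sh-IRF1. Both knockdown libraries were lower by about the same amount, and the mean was 74.7% of that in sh-NC (log2 fold change -0.42, SE 0.037, limma adjusted p = 2.39e-13). UBA1, the main E1 of ubiquitin, stood at 9845 and 9991 in sh-NC and at 9954 and 10168 in sh-IRF1. The groups overlapped, and the 95% interval of the difference, -0.04 to 0.08, excludes a change as large as that of UBA2. UBA6, a second ubiquitin E1 that also activates the modifier FAT10, had 1128 and 1094 against 1039 and 985 (-0.14, adjusted p = 0.106). UBA3, the catalytic subunit of the NEDD8 E1, had 997 and 1065 against 1084 and 1120 (0.10, adjusted p = 0.263). Neither passed the test, though the libraries of the groups did not overlap for either gene.

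Of the 2 NEDD8 E2 enzymes, 0 were called lower and 1 higher. UBE2M (ENSG00000130725), which loads NEDD8 onto most cullins, stood at 3844 and 3482 normalized counts in sh-NC and at 4052 and 3982 in sh-IRF1. It was one of the 2 genes called higher (log2 fold change 0.14, SE 0.0426, adjusted p = 0.0086), at 110% of the sh-NC mean. The call was lost without sh-NC replicate 2, without sh-IRF1 replicate 1 and without sh-IRF1 replicate 2, with fold changes between 0.06 and 0.21 over the libraries left out. UBE2F, which serves CUL5, had 213 and 167 against 189 and 235, so the groups overlapped (0.16, adjusted p = 0.455). Of the 75-base windows of its transcript, 26.5% also occur in other genes, mostly in the read-through gene UBE2F-SCLY.

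Among the 9 E2 enzymes that work with many ligases, 4 (44.4%) were lower and 0 higher, against 21.9% and 20.3% of all genes tested. The UBE2E family held both the deepest falls and an uncalled member. UBE2E1 (ENSG00000170142, chr3:23805955-23891640, plus strand) is a nuclear E2 with an extended N terminus. It stood at 1225 and 1323 normalized counts in sh-NC and at 757 and 804 in sh-IRF1. The knockdown libraries lay far below both control libraries, with means of 1274 ± 69.4 and 780 ± 33.2 (SD, n = 2), or 61.3% of sh-NC. The log2 fold change was -0.71 (SE 0.0705, 95% interval -0.85 to -0.56, adjusted p = 1.06e-11), and it ran from -0.76 to -0.65 over all alternatives. The study drew UBE2E1 in a heat map of MYC target genes made from these libraries, so its direction here is not independent evidence. The same holds for every other enzyme of the set, since the study's own test used these libraries too. Of its exonic bases 33.8% are also covered by NKIRAS1 on the opposite strand. NKIRAS1 was counted at 60.5 and 78.1 in sh-NC and at 53.7 and 54.3 in sh-IRF1, and reads of the stretch the genes share cannot be told apart while the strand setting is unknown.

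UBE2E2 (ENSG00000182247, chr3:23203020-23591794, plus strand), a close relative of UBE2E1, lies on the same strand 214160 bases before it. It had few reads, with 40.0 and 70.9 normalized counts in sh-NC and 18.9 and 26.2 in sh-IRF1. Both knockdown libraries were below both controls, but the controls themselves were far apart. The log2 fold change of -1.22 (SE 0.363, adjusted p = 0.00526) therefore has a wide 95% interval, from -1.95 to -0.49. The call was lost without sh-NC replicate 2 and without sh-IRF1 replicate 1, and the fold change ran from -1.63 to -0.82 over the libraries left out. UBE2E3, the family member on chromosome 2, stood at 685 and 690 in sh-NC and at 671 and 773 in sh-IRF1. Its groups overlapped, and the 95% interval of its log2 fold change was -0.10 to 0.24.

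Of the 4 UBE2D enzymes, which serve many RING ligases, 2 were lower and 2 did not pass the test. UBE2D2 (ENSG00000131508) fell from 1932 and 2004 normalized counts in sh-NC to 1458 and 1449 in sh-IRF1 (log2 fold change -0.44, SE 0.0547, adjusted p = 4.80e-09). UBE2D3, which had the most reads of the 4, fell from 5473 and 5529 to 4562 and 4775 (-0.24, SE 0.037, adjusted p = 6.30e-07). For both genes every knockdown library was below every control library. UBE2D1 had 447 and 409 against 389 and 334, also without overlap (-0.25, adjusted p = 0.0698), and was called lower in 2 of 15 alternatives, without sh-NC replicate 2 and without sh-IRF1 replicate 1. UBE2D4 had 145 and 161 against 195 and 194 and pointed the other way (0.35, adjusted p = 0.0811). UBE2D4 was called higher only when libraries were scaled by their total reads, and other genes cover 15.5% of its exonic bases. The windows of 75 bases that UBE2D2 and UBE2D3 share with any other gene came to 0.244% and 1.26%, so stretches of that length that are identical between these similar transcripts and another gene are few.

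Both remaining enzymes of this class did not pass the test. UBE2L3, which serves HECT and RBR ligases, had 2986 and 3056 normalized counts in sh-NC and 2966 and 2830 in sh-IRF1 (log2 fold change -0.06, adjusted p = 0.286). UBE2W, which attaches ubiquitin to the N terminus of proteins, had 1888 and 1850 against 1976 and 2034 (0.10, adjusted p = 0.112), and was called higher only under scaling by total reads.

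Of the 5 E2 enzymes that build chains with cullin ligases or the APC/C or extend chains on their own, 3 were lower and 1 higher. UBE2G1 (ENSG00000132388), which extends chains on substrates of cullin ligases, stood at 2405 and 2393 normalized counts in sh-NC and at 1783 and 1717 in sh-IRF1. The replicates lay close together and the groups far apart, at 72.9% of the sh-NC mean (log2 fold change -0.46, SE 0.0505, adjusted p = 1.99e-10). UBE2K, which builds chains that target proteins to the proteasome, fell from 3795 and 3994 to 3037 and 2987 (-0.37, SE 0.0421, adjusted p = 3.84e-10). UBE2R2 and CDC34 are paralogs that extend chains for SCF ligases, and they were called in opposite directions. UBE2R2 fell from 2071 and 2124 to 1753 and 1670 (-0.29, SE 0.0525, adjusted p = 8.29e-06). CDC34 (ENSG00000099804) had 1180 and 1112 in sh-NC against 1220 and 1353 in sh-IRF1, the second of the 2 genes called higher (0.17, SE 0.0656, adjusted p = 0.0386). The call of CDC34 was lost with no filter on low values, with DESeq2, without sh-NC replicate 2 and without sh-IRF1 replicate 2. UBE2S, which lengthens chains with the APC/C, had 8095 and 7442 against 8147 and 7671 with overlapping groups (0.03, adjusted p = 0.587), was called higher without sh-NC replicate 1, and shares 14.2% of its transcript windows with pseudogenes.

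UBE2N is the enzyme that builds lysine-63 chains used in signalling and repair, and it needs one of the inactive cofactors UBE2V1 and UBE2V2. UBE2N fell from 1739 and 1712 normalized counts in sh-NC to 1435 and 1438 in sh-IRF1 (log2 fold change -0.26, SE 0.0562, adjusted p = 1.28e-04). The replicates were nearly equal in each group. Of its exonic bases 41.6% lie under NUDT4 on the opposite strand, which was itself lower by -0.19 (SE 0.058, adjusted p = 0.00649; called in 14 of 15 alternatives, not without sh-IRF1 replicate 1). Whether the counting used strand is not given in the sources used here, so reads of the 2 genes cannot be told apart there. UBE2V2 (ENSG00000169139) stood at 2545 and 2565 in sh-NC and at 1929 and 1890 in sh-IRF1, or 74.7% of the sh-NC mean (-0.42, SE 0.0488, adjusted p = 6.83e-10). UBE2V1 had only 45.1 and 33.9 against 47.7 and 49.7 (0.31, adjusted p = 0.461). Of its transcript windows 97.9% are also found in the read-through gene PEDS1-UBE2V1, so its level here cannot be read as that of the UBE2V1 protein's messages as a whole.

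One of the 3 enzymes of the endoplasmic reticulum was lower. UBE2J1 (ENSG00000198833), which is anchored in the membrane and acts on misfolded proteins, fell from 3159 and 3265 normalized counts in sh-NC to 2511 and 2365 in sh-IRF1. That is 75.9% of the sh-NC mean, with no overlap (log2 fold change -0.40, SE 0.0456, adjusted p = 4.66e-10). Its relative UBE2J2 had 1655 and 1634 against 1533 and 1514, also without overlap but short of the threshold (-0.11, adjusted p = 0.112). UBE2G2, the soluble E2 of the same pathway, had 1754 and 1725 against 1689 and 1774 (-0.01, adjusted p = 0.934), and its sign changed with the scaling.

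The RAD6 homologs UBE2A and UBE2B, which ubiquitinate histone H2B and the replication clamp PCNA, were both called lower, at 70.2% and 90.7% of sh-NC for UBE2B and UBE2A. UBE2B (ENSG00000119048, chr5:134371184-134392108, plus strand) stood at 730 and 729 normalized counts in sh-NC and at 548 and 476 in sh-IRF1. The knockdown libraries differed from each other more than the controls did, yet both were far below them. UBE2B fell by 0.51 on the log2 scale (SE 0.0897, 95% interval -0.70 to -0.33, adjusted p = 5.49e-06), by 0.41 to 0.62 with a library left out, and the call held under all 15 alternatives. UBE2A had 1540 and 1556 against 1392 and 1418 (-0.14, SE 0.0579, adjusted p = 0.047). That call was lost in 8 of 15 alternatives, among them edgeR, DESeq2, scaling by total reads, no filter and each of the 4 fits that left out a library. UBE2A shares 17.8% of its exonic bases with NKRF and STEEP1 on the opposite strand, and NKRF was lower by -0.55. UBE2T, the E2 of the Fanconi anemia pathway, had 739 and 736 against 737 and 772 (0.03, adjusted p = 0.774).

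Of the 6 large or otherwise unusual enzymes, 4 (66.7%) were lower and 0 higher, against 21.9% and 20.3% of all genes tested. UBE2Q2 (ENSG00000140367) fell from 1202 and 1277 normalized counts in sh-NC to 963 and 906 in sh-IRF1 (log2 fold change -0.41, SE 0.0678, adjusted p = 2.29e-06). Its paralog UBE2Q1 had 1477 and 1391 against 1264 and 1236 (-0.20, SE 0.0611, adjusted p = 0.00744), a call lost without sh-NC replicate 1 and without sh-IRF1 replicate 2. Neither gene's groups overlapped. UBE2O, a very large enzyme that acts as E2 and E3 at once, fell from 1732 and 1657 to 1386 and 1408 (-0.28, SE 0.0571, adjusted p = 7.84e-05). UBE2Z, which receives ubiquitin from UBA6 alone, fell from 2051 and 2119 to 1838 and 1797 (-0.20, SE 0.0516, adjusted p = 0.00155). BIRC6, a giant E2 that restrains apoptosis, had 3170 and 3474 against 3275 and 3339 (-0.01, adjusted p = 0.941). UBE2H, the E2 of the CTLH ligase, had 1370 and 1327 against 1348 and 1454 (0.05, adjusted p = 0.51), and for both of these last genes the groups overlapped.

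Several of these enzymes have a close relative or a partner subunit in the table, and the ratio of the pair within each library does not depend on the scaling of the libraries. In all, 10 such ratios of normalized counts were computed for pairs chosen with the values known, so they are given with no test. A ratio of counts also carries the ratio of transcript lengths, so it is compared between groups only. The member that had fallen, or fallen further, was placed on top, so the direction of the ratios follows from that choice and their number is no result. The libraries of the groups did not overlap in 9 of the 10 pairs. UBE2E1 over UBE2E3 was 1.79 and 1.92 in sh-NC and 1.13 and 1.04 in sh-IRF1, or 58.5% of the sh-NC mean. UBE2R2 over CDC34 was 1.76 and 1.91 against 1.44 and 1.23 (72.9%). UBE2G1 over UBE2G2 was 1.37 and 1.39 against 1.06 and 0.968 (73.3%), so their counts were nearly equal in the knockdown libraries. UBE2B over UBE2A was 0.474 and 0.469 against 0.394 and 0.336 (77.4%), and UBE2J1 over UBE2J2 was 1.91 and 2.00 against 1.64 and 1.56 (81.9%). Transcript ratios of the subunits of E1 heterodimers differed between the groups as well, while protein was not measured in these libraries. UBA2 over SAE1, its partner in the SUMO E1, was 0.992 and 0.965 against 0.712 and 0.690 (71.7%), and SAE1 itself did not pass the test (0.06, adjusted p = 0.183). NAE1 over UBA3, the subunits of the NEDD8 E1, was 1.32 and 1.29 against 0.903 and 0.90 (69.2%), and here the regulatory subunit NAE1 was the one that fell (-0.44, SE 0.065, adjusted p = 2.55e-07). The ratios of UBE2Q2 to UBE2Q1 and of UBA6 to UBA1 came to 86.3% and 89.8%, and only UBE2D2 over UBE2D1 overlapped, at 4.32 and 4.90 against 3.75 and 4.35.

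**Figure D3:**
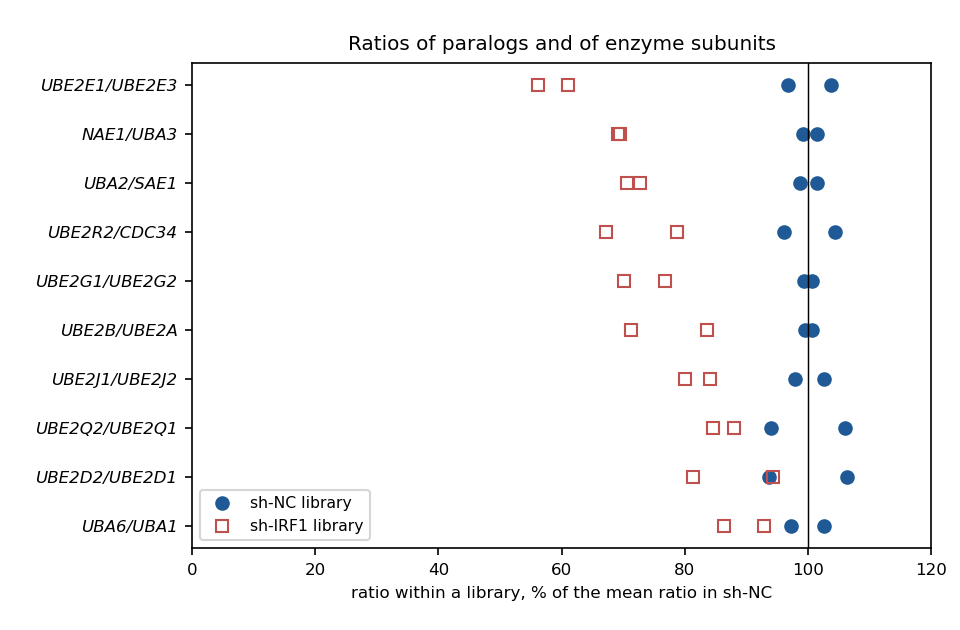
Ratio of normalized counts within each library for 10 pairs of paralogs or subunits, as a percentage of the mean ratio in sh-NC, with 1 circle or square per library. The ratios of UBE2E1 to UBE2E3 and of NAE1 to UBA3 were lowest, at 58.5% and 69.2%, and UBE2D2 to UBE2D1 alone overlapped.

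Levels per transcript length, as transcript shares (TPM) from the recovered reads and the length of 1 canonical transcript per gene, spanned more than 2 orders of magnitude. UBE2M, UBE2S and UBA1 led in sh-NC with 404 ± 26.9, 388 ± 21.7 and 355 ± 4.85 TPM (SD, n = 2). The SDs of UBE2M and UBE2S overlap, so their order is not settled by these libraries. UBE2D3 followed with 188 ± 1.98 and UBA2 with 180 ± 4.36. The least abundant were UBE2D4 with 4.91 ± 0.393, UBE2E2 with 2.61 ± 1.04 and UBE2V1 with 2.39 ± 0.473, the last of which shares its reads as given above. UBE2E1 stood at 91.2 ± 5.27 in sh-NC and 58.5 ± 3.01 in sh-IRF1, while UBE2E3 stood at 56.5 ± 0.473 and 62.1 ± 6.72. UBE2E1 was thus above UBE2E3 in sh-NC, and in sh-IRF1 the levels were within their SDs. The order depends on the length used. With the union of all annotated exons UBE2S ranked 1 and UBE2M 2, and UBE2A moved from rank 7 to 22.

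**Figure D4:**
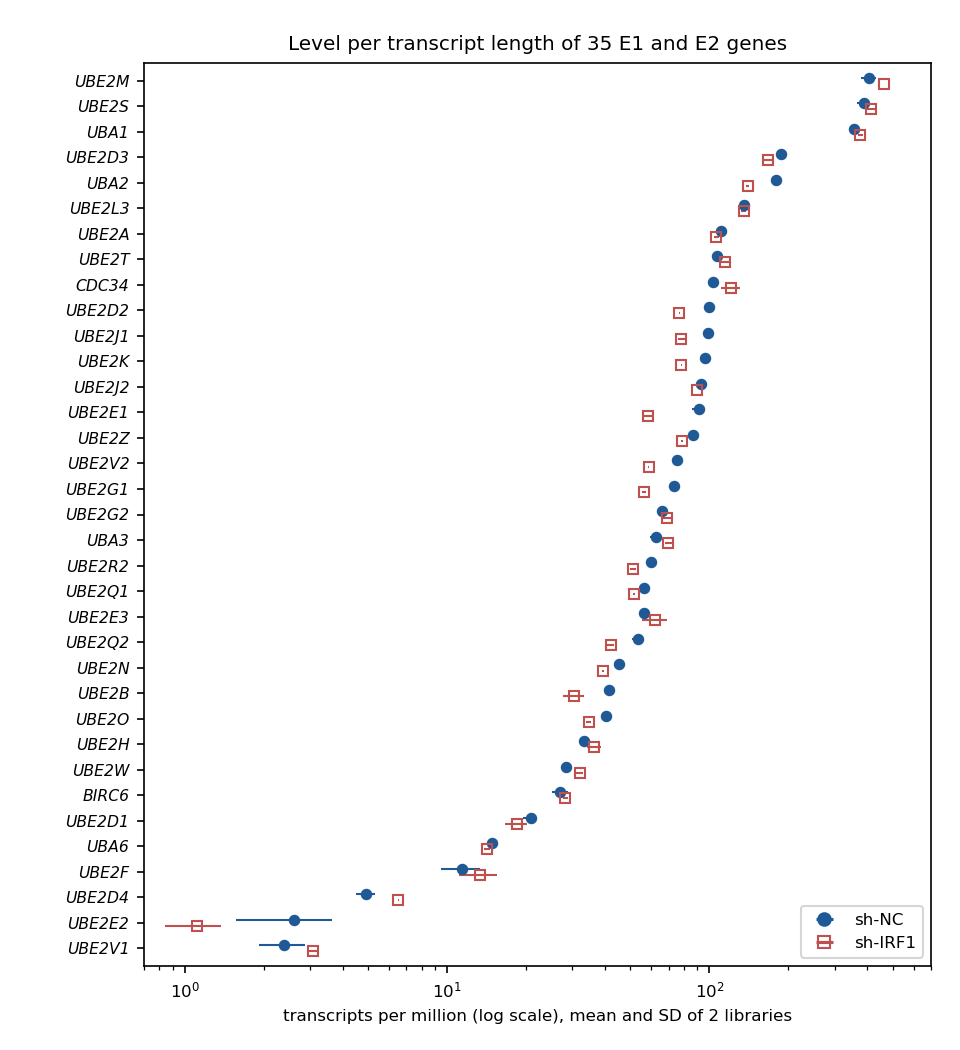
Level of the 35 genes in TPM on a log axis, mean with SD of the 2 libraries of each group, ordered by the level in sh-NC. UBE2M, UBE2S and UBA1 stand apart at the top, and UBE2D4, UBE2E2 and UBE2V1 stand below 10 TPM in both groups.

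The other genes of the pathway, which the enzymes receive modifiers from or hand them to, were counted in 7 lists of 117 genes, of which 113 were in the table and all of these were tested. UBE2QL1, UBE2U, UBD and NEDD4L were not analysed here. Of the 113, 32 (28.3%) were lower and 26 (23.0%) higher, against 21.9% and 20.3% of all genes tested. Their median log2 fold change of -0.02 was closer to that of all genes than the median of the 35 enzymes was. Under all alternatives that could be computed, 29 of the 32 and 14 of the 26 calls held. Among the 15 other E1 and E2 genes, 2 were lower and 2 higher. NAE1 had the smallest p of those that fell, and ATG7, the E1 of autophagy, of those that rose (0.37, SE 0.075, adjusted p = 7.08e-05). UBE2C, the E2 that starts chains with the APC/C, had 2098 and 1932 normalized counts against 1870 and 1800 (-0.13, adjusted p = 0.0391), a call lost in 6 of 15 alternatives. UBE2L6, the E2 of the interferon-induced modifier ISG15, rose from 294 and 241 to 406 and 363 (0.52, SE 0.124, adjusted p = 5.26e-04). ISG15 had 236 and 149 against 275 and 289 (0.58, adjusted p = 0.00205), a call lost without sh-NC replicate 2 and without sh-IRF1 replicate 2, and the E1 of ISG15, UBA7, did not pass the test (0.07, adjusted p = 0.473).

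The genes that encode the modifiers themselves changed in opposite directions, with 7 of 11 lower (63.6%) and 3 higher (27.3%). Over all genes tested the shares were 21.9% and 20.3%. UBB, a polyubiquitin gene, rose from 3427 and 3006 normalized counts in sh-NC to 3754 and 3872 in sh-IRF1 (0.25, SE 0.0458, adjusted p = 1.45e-05). RPS27A, which encodes ubiquitin fused to a ribosomal protein, fell from 9744 and 9081 to 7718 and 7307 (-0.33, SE 0.034, adjusted p = 4.08e-11). Both knockdown libraries lay on the same side of both controls for each of these genes. SUMO2 and SUMO3, modifiers that UBA2 activates, were lower by -0.21 and -0.35.

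The ligases and their regulators were divided by complex. Of 20 cullin scaffolds and neddylation regulators, 8 were lower and 4 higher (median -0.20). DCUN1D1, a helper of UBE2M in cullin neddylation, fell from 1047 and 1043 normalized counts to 573 and 610 (-0.82, SE 0.0776, adjusted p = 2.15e-12), and CUL5, the cullin served by UBE2F, from 1188 and 1194 to 739 and 759 (-0.67, SE 0.0708, adjusted p = 5.69e-11). CUL9 had the smallest p of those that rose (0.37, adjusted p = 1.58e-04). Of 16 APC/C subunits and activators, 6 (37.5%) were lower, led by ANAPC5 (-0.23, adjusted p = 1.57e-06), and 3 (18.8%) higher, led by ANAPC2 (0.34, adjusted p = 6.44e-05). The shares of higher calls among the cullin and APC/C genes were near the 20.3% of all genes tested. The 12 ligases and partners of degradation at the endoplasmic reticulum held 0 lower calls and 1 higher call (8.33%). That call was NPLOC4, a cofactor of the segregase VCP (0.24, SE 0.0426, adjusted p = 6.69e-06), and the smallest p downward was that of DERL1, which missed the threshold (-0.07, adjusted p = 0.177).

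Among the 10 chromatin and DNA repair ligases, 1 was lower and 5 higher (median 0.17). Of the E2 enzymes of that role, UBE2A and UBE2B were called lower and UBE2T did not pass the test. With DESeq2 the call of UBE2A was lost, and so were those of RAD18 and FANCL, both among the higher ligases. RNF20 and RNF40, the ligase of histone H2B that uses UBE2A or UBE2B, were higher, with RNF40 at 1700 and 1614 normalized counts against 2213 and 2170 (0.40, SE 0.0524, adjusted p = 1.08e-08) and RNF20 at 611 and 596 against 808 and 834 (0.44, SE 0.0815, adjusted p = 1.38e-05). HLTF, which works with UBE2N on PCNA, was the only one lower (-0.46, SE 0.0579, adjusted p = 4.72e-09). Of 29 HECT, RBR and other ligases, 8 were lower and 8 higher, or 27.6% each, against 21.9% and 20.3% of all genes tested. RMND5A, the CTLH ligase subunit, fell most clearly (-0.54, SE 0.0441, adjusted p = 1.80e-14) while its E2, UBE2H, did not pass the test, and UBE3B rose most clearly (0.50, SE 0.0653, adjusted p = 1.58e-08). Of the partner genes named here, ATG7, UBB, RPS27A, CUL5, RNF40 and HLTF have between 13.0% and 40.2% of their exonic bases under a gene on the opposite strand, so some of their reads are of uncertain origin.

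**Figure D5:**
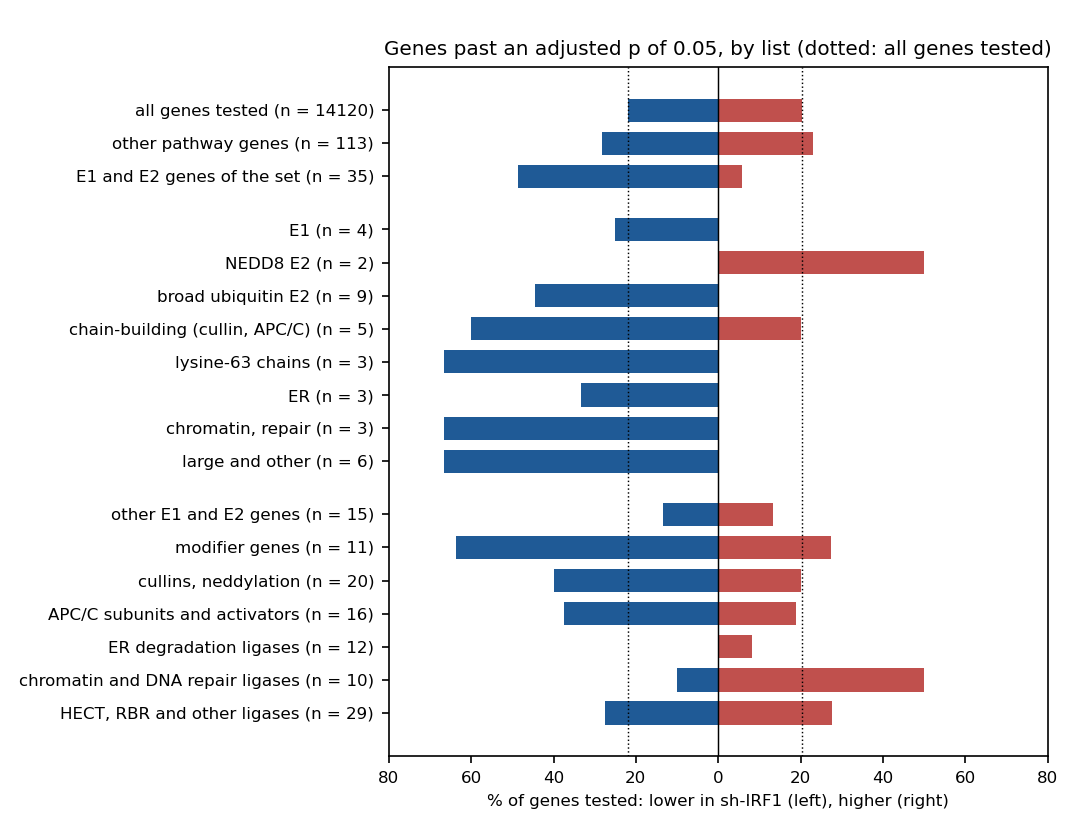
Share of the genes tested in each list that were lower (left) or higher (right) in sh-IRF1 at an adjusted p under 0.05, with dotted lines at the shares over all 14120 genes, 21.9% and 20.3%. The 35 enzymes reach 48.6% to the left and 5.71% to the right, and roles of 2 to 9 genes move in large steps with each gene.

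Promoter sequences near the start of these genes were searched for motifs of interferon regulatory factors, MYC and ETS factors. Motifs of RUNX2 and MEF2D, other factors of the study's circuit, were not searched. Windows of 300 bases, 250 before and 50 after each annotated start, were taken from RefSeq on GRCh38.p14, which gave 43 windows for 30 of the 35 genes and for 14 of the 17 that were lower. UBE2H, UBE2W, UBE2V2, UBE2Q1 and UBE2B had no window. Each motif was searched on both strands. GAAANNGAA, a pair of half-sites of the interferon regulatory factors, to which IRF1 belongs, occurred in 4 of the 43 windows (9.30%) and in 8.11% of all 35116 windows. The 4 windows belong to UBE2E2 and UBE2D3, both lower, and a match of UBE2D3 lies in a pair of overlapping windows. CACGTG, the E-box bound by MYC, occurred in 1 window (2.33%, against 7.26% of all), that of UBA1, which did not pass the test. CCGGAAG, a core bound by ETS factors such as ELF1 and ETV6, occurred in 8 windows (18.6%, against 10.3%), of which 2 belong to lower genes, UBA2 and UBE2N, and 6 to genes that did not pass the test. Below is the more upstream window of UBE2E1, the gene with the deepest fall among genes with many reads. Windows of UBE2E2, UBE2D3 and UBA2 that hold a match follow it, with motif letters in capitals.
UBE2E1, chr3:23805705-23806004, plus strand: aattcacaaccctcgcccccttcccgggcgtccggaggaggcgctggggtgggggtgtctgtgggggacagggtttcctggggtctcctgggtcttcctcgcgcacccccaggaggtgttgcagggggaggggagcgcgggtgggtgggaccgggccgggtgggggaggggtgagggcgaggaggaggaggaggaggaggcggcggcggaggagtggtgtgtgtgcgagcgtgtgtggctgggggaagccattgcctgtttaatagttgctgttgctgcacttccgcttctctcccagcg
UBE2E2, chr3:23203077-23203376, plus strand: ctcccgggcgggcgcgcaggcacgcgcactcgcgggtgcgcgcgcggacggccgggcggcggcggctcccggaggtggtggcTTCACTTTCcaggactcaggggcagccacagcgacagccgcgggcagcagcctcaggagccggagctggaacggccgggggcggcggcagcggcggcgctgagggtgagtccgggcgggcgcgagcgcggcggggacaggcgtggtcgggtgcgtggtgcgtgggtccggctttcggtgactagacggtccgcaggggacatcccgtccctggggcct
UBE2D3, chr4:102826809-102827108, minus strand: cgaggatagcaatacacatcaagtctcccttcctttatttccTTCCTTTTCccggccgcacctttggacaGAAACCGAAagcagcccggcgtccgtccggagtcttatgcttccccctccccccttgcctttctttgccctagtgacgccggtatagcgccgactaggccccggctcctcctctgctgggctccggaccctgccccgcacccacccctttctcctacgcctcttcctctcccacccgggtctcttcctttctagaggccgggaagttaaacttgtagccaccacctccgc
UBA2, chr19:34428131-34428430, plus strand: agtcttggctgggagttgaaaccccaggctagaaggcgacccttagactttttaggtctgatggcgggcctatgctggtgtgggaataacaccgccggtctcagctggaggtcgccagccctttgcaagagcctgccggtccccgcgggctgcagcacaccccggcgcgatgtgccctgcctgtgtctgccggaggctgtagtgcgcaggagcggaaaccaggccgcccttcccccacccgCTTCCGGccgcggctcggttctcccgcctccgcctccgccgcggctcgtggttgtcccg

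The window of UBE2E1 shown held none of these 3 motifs, and neither did the window at its other annotated start (chr3:23810204-23810503). This says only that these letters are not in these bases. In UBE2E2 the capitals mark 1 half-site pair on the minus strand, in UBE2D3 a pair of such matches on opposite strands, and in UBA2 an ETS core on the minus strand. A match is not a bound site, and binding was not measured in these libraries. The study did map binding of IRF1 and the other factors of its circuit in the same cell line, by CUT&Tag. Those peaks were not compared with the windows searched here, so whether any match lies in a bound region was not tested.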

How the data were processed

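RNA was sequenced from 2 sh-NC and 2 sh-IRF1 libraries of MV4-11 cells, prepared with an Illumina TruSeq kit per the labels. The submitters' processing notes name HISAT2 2.0.5 and the build hg38. Counting tool, gene annotation and strand setting are not given in the sources used here, and DESeq2 is the study's stated test. The authors deposited a normalized signal, in which every count of reads had been scaled by a size factor of its library. All values (100%) were whole multiples of the value of 1 read within 0.0001 of a read, so reads were recovered. All 4 columns were used, and 0 others were present.

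The enzymes and the lists were chosen with earlier results of these data known. limma 3.58.1 (R 4.3.3, trend and robust) was fitted on log2(value + 1) over the 14120 genes that reached a value of 10 in 2 or more libraries, with Benjamini-Hochberg adjustment over all of them, and 5953 genes (42.2%) passed 0.05. Its shared spread had 43 prior degrees of freedom. edgeR 4.0.16 and DESeq2 1.42.0 were run on the recovered reads as alternatives, beside other scalings, filters, pseudocounts, a replicate block and each library left out. The fitting code was tested on simulated data. Replicates differed by more than sampling noise, the mean chi-square of a gene being 2.93 between the sh-NC libraries and 2.47 between the sh-IRF1 libraries. Symbols matched 23456 of 23622 identifiers. Positions, lengths, shared exonic bases and 75-base windows came from GENCODE 44 on GRCh38, and shared bases are given where they passed 10% of a gene's exons. All enzymes were named, and from the other lists the most significant gene of either direction. Any other gene was named after its values were seen. A few genes of these lists are counted but not reported by name here. Log2 fold changes understate the change of genes with few reads, and depth limits UBE2E2 and UBE2V1 most.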

Additional observations from a re-analysis of the deposited data

How the results depend on the processing

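Of the 35 enzymes, 15 to 17 were called lower and 2 or 3 lower beyond 0.5 under the 15 alternatives, and 0 were higher beyond 0.5 under any of them. The count of higher calls, 2 in the main analysis, was 4 with scaling by total reads (UBE2D4 and UBE2W added), 1 with no filter, 1 with DESeq2 (CDC34 lost in both) and 0 to 3 with a library left out. The median log2 fold change of -0.14 became -0.096 with scaling by total reads, which moved the median of all genes to 0.04, and ran from -0.174 to -0.136 with a library left out. IRF1 stayed called lower under all 15. The sign changed only for genes that did not pass the test. With scaling by total reads UBE2G2 became 0.037 and BIRC6 0.04. With a library left out UBE2F ran from -0.017 to 0.331, UBE2E3 from -0.035 to 0.168, UBE2S from -0.034 to 0.087, UBE2G2 from -0.042 to 0.028, UBE2T from -0.001 to 0.066, BIRC6 from -0.071 to 0.061 and UBE2H from -0.001 to 0.109. The cause of these shifts was not tested. With the replicate number as a block 17 genes were lower and 2 higher, and the block changed no call of the 35. Same-numbered libraries did not deviate together (correlation -0.0154 over 14120 genes), so the numbers were not taken to pair the libraries. Depth limits genes with few reads: UBE2E2 and UBE2V1 did not pass a filter at 50, so they have no value there.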
